A study of Mus musculus with 10 samples.

Results

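Pericytes are the cells that wrap capillaries, and vascular smooth muscle cells form the muscular wall of arterioles and arteries. Together they are called mural cells. In white fat they support a dense capillary bed, and cells of the capillary wall have also been described as a source of adipocyte precursors. The 10 genes described here mark these cells. They are the pericyte genes Mcam, Cspg4, Rgs5, Notch3, Pdgfrb, Kcnj8 and Abcc9 and the contractile smooth muscle genes Acta2, Tagln and Myh11. They were chosen by name, with earlier results of these data known. All 10 were found among the 40503 genes of the table, with 19 transcripts among 84046.

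RNA-seq libraries were made from gonadal white adipose tissue (gWAT, the fat beside the ovaries and uterus) of 10 female C57BL/6 mice aged 12 weeks, 5 labelled Med19 KO and 5 labelled WT. The KO mice (MED19-iAKO) carried an inducible, adipose-specific deletion of Med19, a subunit of the transcriptional Mediator complex, and had tamoxifen at 100 mg/kg on 5 days, with fat collected 14 days afterwards. What drove the recombinase, and whether WT mice had tamoxifen, is not stated in the labels. Values are RPKM, reads scaled to gene length and library depth, and libraries are named by label and the number in their title.

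The depth recovered from the RPKM values was 15178114 to 20178095 reads in the KO-labelled libraries and 14440552 to 16185635 in the WT libraries. Med19 itself averaged 6.79 ± 0.85 RPKM in KO-labelled and 6.70 ± 0.89 RPKM in WT libraries (SD, n = 5 each; 2-sided exact permutation p = 0.881, smallest possible 0.0079). Its RNA therefore gave no check of the labels, every direction below rests on them, and the libraries are called KO-labelled. Of 10 adipocyte markers, 9 passed the test and all 9 were lower in the KO-labelled libraries, where the list summed to 5332 to 5588 RPKM against 13380 to 19460 RPKM in WT. Among the 10 fibroblast and progenitor markers 3 were called higher, and among 10 endothelial markers 1 was called lower. Of all genes tested, 1.95% were called lower and 4.0% higher. None of the mesothelial, skeletal muscle, reproductive tract or Schwann cell markers was called, of 8, 3, 3 and 4 tested, and none of these marker genes was listed at 0 in every library. KO 1 and KO 4 stood apart from the other KO-labelled libraries in the skeletal muscle list. This list summed to 2.95 to 79.3 RPKM in KO-labelled and 17.7 to 41.4 RPKM in WT libraries, and its genes Ckm, Myh1, Myh2 and Myh4 were below the filter. Ckm, muscle creatine kinase, reached 10.9 RPKM (KO 1) and 6.19 RPKM (KO 4), with 0.0407 to 0.0789 RPKM in the other KO-labelled libraries and 0 to 2.69 RPKM in WT libraries. Acta1, skeletal muscle actin, reached 44.1 RPKM (KO 1) and 31.0 RPKM (KO 4), with 0.865 to 3.41 RPKM in the other KO-labelled libraries and 16.0 to 37.5 RPKM in WT libraries. For Acta1, KO 4 thus lay inside the WT range, and KO 7, KO 8 and KO 17 lay below every WT library. These values were picked out after they were seen.

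Mcam and Cspg4 were lower in the KO-labelled libraries, and the other 5 pericyte genes and the 3 contractile genes did not pass the test in either direction. Calls rest on limma, run on log2(RPKM + 0.5) of 17038 genes, with p-values adjusted over all of them (Benjamini-Hochberg) and a threshold of 0.05. All 10 genes passed the filter on low values. The 2 calls lower compare with 1.95% of all genes tested, and the 0 calls higher with 4.0%. Scaling moved that background, from 332 lower and 681 higher to 416 lower and 102 higher under median-ratio scaling and to 392 lower and 149 higher under quantile normalization. Only these 2 members had an unadjusted p under 0.05, and the count was 2 lower and 0 higher in each of the 21 alternative fits, voom on recovered reads included. Of the 8 members not called, 6 had a log2 change below 0 and 2 above. The median log2 change of the 10 members was -0.11, against 0.09 over all genes tested, and no test was made over the 10 together. Without KO 1 and KO 4 together, Mcam had a log2 change of -0.97 (adjusted p = 0.00598) and Cspg4 one of -0.80 (adjusted p = 0.0301), and among all genes 146 were called lower and 84 higher. In bulk tissue, fewer cells of a type and less RNA per cell cannot be told apart.

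**Figure D1:**
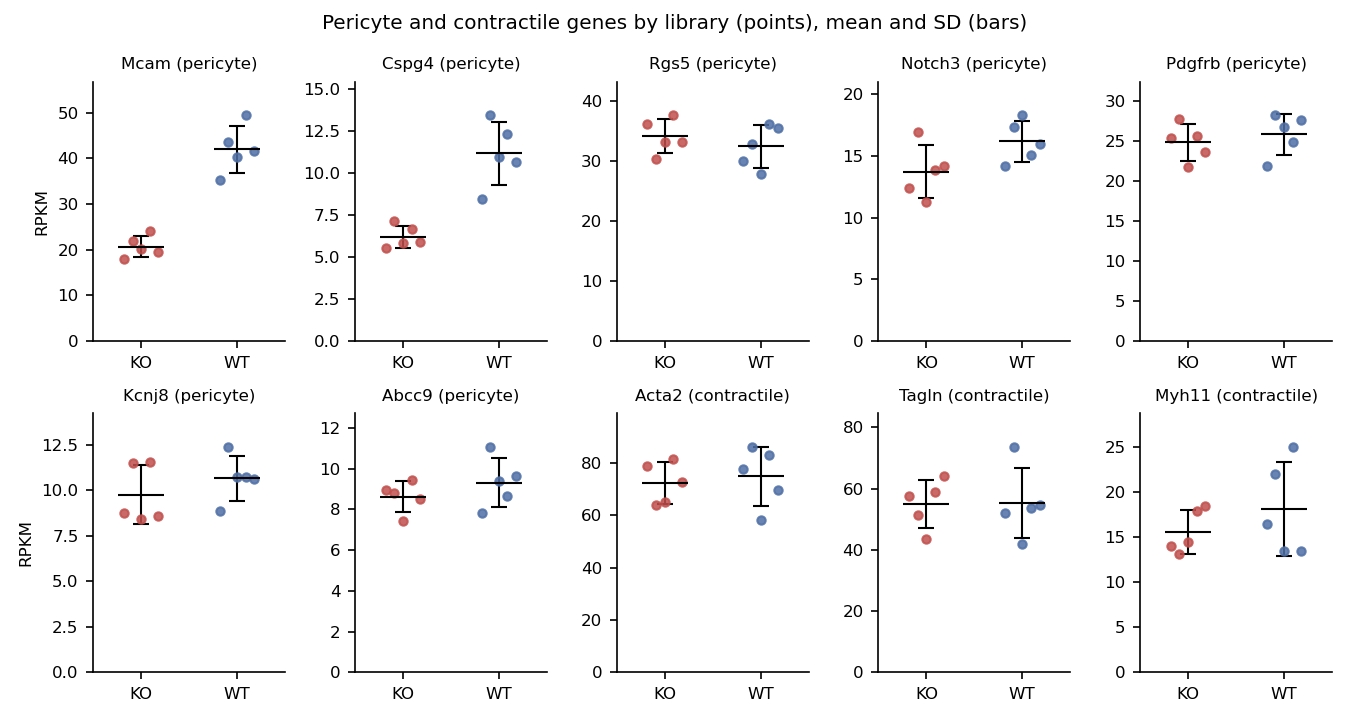
RPKM of each of the 10 genes (y axis, from 0) in the KO-labelled (left) and WT (right) libraries, 1 point per library, with the mean and SD as bars. Mcam and Cspg4 show no overlap between the groups, and the other 8 genes overlap.

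Mcam encodes CD146, an adhesion molecule of the immunoglobulin superfamily carried by pericytes, smooth muscle cells and endothelial cells. It was at 17.9, 21.8, 20.1, 24.1 and 19.4 RPKM in the KO-labelled libraries 1, 4, 7, 8 and 17, against 35.3, 43.5, 40.2, 49.4 and 41.6 RPKM in the WT libraries 2, 9, 19, 86 and 89. Every KO-labelled library lay below every WT library, as it did for 2.15% of all genes tested, and in 6.96% every KO-labelled library lay above. The means were 20.7 ± 2.4 RPKM in KO-labelled and 42.0 ± 5.1 RPKM in WT libraries (SD, n = 5 each), and the log2 value fell by 1.01 (SE 0.10, adjusted p = 3.45e-04). As a ratio of KO to WT this is 0.427 to 0.581 (95% interval). This was the 182nd lowest log2 change of the genes tested. Between 911 and 2393 reads per library stood behind these values.

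Cspg4 encodes the proteoglycan NG2, a surface marker of pericytes and of some progenitor cells. Its level was 5.55, 7.14, 5.82, 6.66 and 5.89 RPKM in the KO-labelled libraries 1, 4, 7, 8 and 17, against 8.48, 13.5, 11.0, 12.3 and 10.7 RPKM in the WT libraries 2, 9, 19, 86 and 89. Again the groups did not overlap, and WT 2 was the WT library nearest to the KO-labelled ones. Cspg4 averaged 6.21 ± 0.66 RPKM in KO-labelled and 11.2 ± 1.9 RPKM in WT libraries, with a log2 change of -0.79 (SE 0.12, adjusted p = 0.00427, ratio interval 0.485 to 0.691). The adipocyte markers, of which the list's median log2 change was -1.20, moved in the same direction as Mcam and Cspg4. Their part in these 2 changes was not tested.

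A promoter was available for 7 of the 10 members, of which Acta2 was the only contractile gene. The sequences before the annotated starts of Mcam and Cspg4, the only members called lower, are shown. That of Acta2, which was not called, is shown beside them. Each is 250 bases upstream of the start, from RefSeq on GRCm38.p6. These are chr9:44134408-44134657 (plus strand) for Mcam, chr9:56864854-56865103 (plus strand) for Cspg4 and chr19:34255374-34255623 (minus strand) for Acta2. Capitals mark GGGCGG on either strand, the GC box letters, in Mcam and Cspg4, and in Acta2 matches to the CArG box, the site of serum response factor, with 1 base of its 6-base core allowed to be other than A or T.
Mcam: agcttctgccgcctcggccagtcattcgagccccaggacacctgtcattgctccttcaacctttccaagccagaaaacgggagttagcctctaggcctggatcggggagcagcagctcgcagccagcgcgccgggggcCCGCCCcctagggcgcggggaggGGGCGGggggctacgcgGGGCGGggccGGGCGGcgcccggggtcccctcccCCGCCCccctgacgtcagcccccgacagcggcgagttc
Cspg4: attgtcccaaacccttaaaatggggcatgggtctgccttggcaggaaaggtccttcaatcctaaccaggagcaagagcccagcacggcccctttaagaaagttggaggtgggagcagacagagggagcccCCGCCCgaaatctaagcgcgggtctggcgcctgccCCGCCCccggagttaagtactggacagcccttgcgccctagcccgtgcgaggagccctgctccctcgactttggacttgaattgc
Acta2: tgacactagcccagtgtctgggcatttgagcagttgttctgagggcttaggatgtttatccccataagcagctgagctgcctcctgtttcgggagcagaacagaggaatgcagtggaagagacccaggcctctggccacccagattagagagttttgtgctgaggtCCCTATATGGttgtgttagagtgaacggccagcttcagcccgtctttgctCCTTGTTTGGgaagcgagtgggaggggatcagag
GGGCGG was found 5 times before Mcam and 2 times before Cspg4, and was not in the Acta2 window. Of the other members with a promoter, none of them called, Notch3 held 4 (GC content 68.8%) and Abcc9 held 1 (66.8%). Rgs5 and Kcnj8 held none (53.6% and 49.2%). Whether GGGCGG goes with the calls was not tested. It is in 32.7% of 32851 mouse promoters of the same length. The CArG box in this looser form starts at -84 and -34 from the annotated start of Acta2, was not in the Mcam or Cspg4 windows, and is in 8.59% of promoters. In its strict form, with a core of A and T alone, it was in none of these 3 windows and in 1.47% of promoters. The GC content of the window was 73.6% for Mcam, 60.4% for Cspg4 and 53.6% for Acta2, against a median of 52.4% over all promoters.

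The table of transcripts gave the Mcam difference for both of its main transcripts. ENSMUST00000098852, which codes for 606 residues, was at 10.2, 11.9, 10.6, 8.35 and 10.4 RPKM in the KO-labelled libraries 1, 4, 7, 8 and 17, against 19.2, 20.6, 15.4, 24.8 and 21.7 RPKM in the WT libraries 2, 9, 19, 86 and 89. The groups did not overlap, and its log2 change was -0.94 (SE 0.13, adjusted p = 0.0137). ENSMUST00000034650, which codes for 648 residues, averaged 8.68 ± 2.70 RPKM in KO-labelled and 18.2 ± 2.8 RPKM in WT libraries, with a log2 change of -1.06 (SE 0.19, adjusted p = 0.0438). Here KO 8, at 13.4 RPKM, reached just above WT 2, at 13.3 RPKM, and the other libraries of the groups stood apart.

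Of the 14 transcripts of these genes that were tested, these 2 were called lower and none higher, against 0.452% lower, 0.0922% higher and 0.544% in either direction of 44475 transcripts. Every KO-labelled library lay below every WT library in 2 of the 14, against 1.30% of all transcripts, and above in 0, against 1.57%. The call of ENSMUST00000098852 ended without KO 1 (log2 change -0.94, adjusted p = 0.0504) or WT 9 (-0.93, adjusted p = 0.0517). That of ENSMUST00000034650 held in only 2 of the 10 runs that left out 1 library, those without KO 8 and without WT 2, with log2 changes between -1.22 and -0.98 over all 10 and adjusted p up to 0.126. The shorter-coding ENSMUST00000098852 made up 54.9 ± 9.5% of the sum of the pair in KO-labelled libraries and 52.7 ± 5.3% in WT libraries, with overlapping values. Cspg4 is represented by ENSMUST00000035661, at 4.15 ± 0.38 RPKM in KO-labelled and 6.68 ± 1.09 RPKM in WT libraries. Its groups did not overlap, from 3.74 to 4.61 against 5.05 to 7.78 RPKM, but its log2 change of -0.61 (SE 0.13) was not called among transcripts (adjusted p = 0.0831). Without WT 2 it was called, at -0.70 (adjusted p = 0.0319). The ratio of KO to WT means was 0.622 for this transcript and 0.556 for the gene. The gene means were higher than those of the transcript, at 6.21 RPKM in KO-labelled and 11.2 RPKM in WT libraries. The reason for this gap was not tested.

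The remaining transcripts tested were not called, and their groups overlapped. The main transcript of each other member had close means: 31.4 RPKM in KO-labelled and 31.6 RPKM in WT libraries for Rgs5 (ENSMUST00000027997), and 10.1 and 10.7 RPKM for Notch3 (ENSMUST00000087723). Pdgfrb (ENSMUST00000025522) stood at 14.3 and 14.2 RPKM in KO-labelled and WT libraries, Kcnj8 (ENSMUST00000032374) at 7.68 and 8.45 RPKM, and Abcc9 (ENSMUST00000100827) at 5.09 and 5.54 RPKM. The contractile transcripts averaged 58.0 RPKM in KO-labelled and 62.1 RPKM in WT libraries for Acta2 (ENSMUST00000039631), 43.8 and 44.9 RPKM for Tagln (ENSMUST00000034590), and 9.21 and 10.5 RPKM for Myh11 (ENSMUST00000090287). Adjusted p ran from 0.801 to 0.998 over these 8. The minor transcripts tested were ENSMUST00000149241 of Mcam, at 1.501 RPKM in KO-labelled and 2.37 RPKM in WT libraries, ENSMUST00000147836 of Mcam, at 1.06 and 1.17 RPKM, and ENSMUST00000115274 of Pdgfrb, at 1.03 and 1.18 RPKM. The other 5 of the 19 were below the filter. Transcripts of 1 gene share reads, so their values are estimates that depend on each other.

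**Figure D2:**
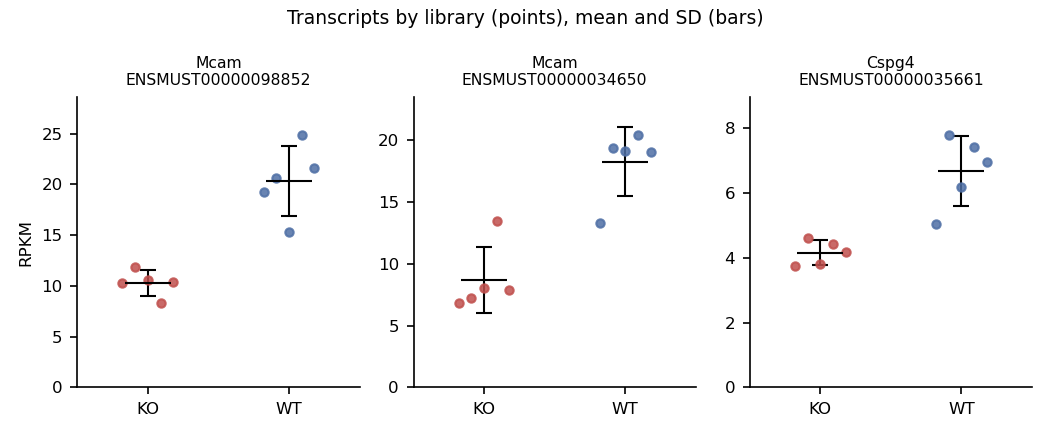
RPKM (y axis, from 0) of the 2 main Mcam transcripts and the Cspg4 transcript in KO-labelled (left) and WT (right) libraries, 1 point per library, with the mean and SD as bars. KO 8 is the high KO-labelled point and WT 2 the low WT point of ENSMUST00000034650, at 13.4 and 13.3 RPKM.

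A noncoding gene on the opposite strand, Gm10687, shares 17 exonic bases with Mcam in GENCODE M21 and was also lower, at 2.16 ± 0.39 RPKM in KO-labelled and 4.39 ± 0.91 RPKM in WT libraries (log2 change -0.87, adjusted p = 0.00772). It was looked up after its values were seen. No source used here states whether counting took account of strand, so reads from the shared bases cannot be assigned to a gene. The shared bases are 0.5% of the exonic length of Mcam.

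Pdgfrb and Notch3 are the receptors through which endothelial cells recruit and mature mural cells. Pdgfrb, the receptor for PDGF-B, averaged 24.8 ± 2.3 RPKM in KO-labelled libraries and 25.8 ± 2.5 RPKM in WT libraries, and 4 of 5 KO-labelled libraries lay within the WT range. Its log2 change was -0.06, with a 95% interval of the ratio from 0.843 to 1.10. Notch3, which takes Jagged ligands from neighbouring cells, was at 12.4, 16.9, 11.3, 13.9 and 14.2 RPKM in the KO-labelled libraries 1, 4, 7, 8 and 17, against 14.2, 17.3, 18.3, 15.0 and 16.0 RPKM in the WT libraries 2, 9, 19, 86 and 89. In Notch3, 3 KO-labelled libraries lay below every WT library, and KO 4 and KO 17 lay inside the WT range. KO 17, at 14.191 RPKM, was just above the lowest WT library, WT 2, at 14.183 RPKM. The difference, a log2 change of -0.24 (SE 0.11), was not called (adjusted p = 0.207). Its interval, a ratio of 0.720 to 1.00, lies above that of Mcam, and the difference between the 2 genes was not tested.

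Rgs5, Kcnj8 and Abcc9 are also used as markers of pericytes. Rgs5, which speeds the switching off of G protein alpha subunits, was at 36.2, 30.4, 33.2, 37.6 and 33.2 RPKM in the KO-labelled libraries 1, 4, 7, 8 and 17, against 30.0, 32.8, 27.8, 36.1 and 35.6 RPKM in the WT libraries 2, 9, 19, 86 and 89. The groups overlapped, and the log2 change of 0.07 (ratio interval 0.921 to 1.20) was not called. Its sign turned under median-ratio scaling (-0.02) and quantile normalization (-0.02). Kcnj8 encodes Kir6.1, the pore of the vascular ATP-sensitive potassium channel, and Abcc9 encodes SUR2, its regulatory subunit. Kcnj8 averaged 9.77 ± 1.62 RPKM in KO-labelled and 10.7 ± 1.2 RPKM in WT libraries (ratio interval 0.767 to 1.09), and Abcc9 averaged 8.62 ± 0.75 and 9.32 ± 1.21 RPKM in KO-labelled and WT libraries (0.808 to 1.08). The other genes of this channel family, Kcnj11 (Kir6.2) and Abcc8 (SUR1), reached at most 0.111 and 0.0813 RPKM in any KO-labelled library and 0.177 and 0.112 RPKM in any WT library, below the filter, and were not tested.

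The contractile genes Acta2 and Tagln were the most abundant of the members, and their group means were close together. Acta2, smooth muscle alpha-actin, was at 78.9, 63.8, 64.9, 81.5 and 72.8 RPKM in the KO-labelled libraries 1, 4, 7, 8 and 17, against 77.8, 86.1, 58.1, 82.9 and 69.6 RPKM in the WT libraries 2, 9, 19, 86 and 89. All 5 KO-labelled values of Acta2 fell within the WT range (log2 change -0.04, ratio interval 0.812 to 1.16, adjusted p = 0.869). Tagln, the actin-binding protein transgelin or SM22, averaged 55.0 ± 7.8 RPKM in KO-labelled and 55.2 ± 11.5 RPKM in WT libraries (log2 change 0.01, ratio interval 0.804 to 1.25), and the sign of so small a difference turned with the scaling.

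Myh11, the smooth muscle myosin heavy chain, was at 14.0, 13.1, 14.5, 17.9 and 18.4 RPKM in the KO-labelled libraries 1, 4, 7, 8 and 17, against 16.4, 21.99, 13.4, 25.0 and 13.4 RPKM in the WT libraries 2, 9, 19, 86 and 89. Its groups overlapped, and of the 10 genes it varied most among WT libraries, with a coefficient of variation of 28.9%. Its mean was 15.6 ± 2.4 RPKM in KO-labelled and 18.0 ± 5.2 RPKM in WT libraries (log2 change -0.18, adjusted p = 0.604). The ratio interval of 0.670 to 1.17 is the widest of the 10 genes, and this comparison is the least precise. In GENCODE M21, Tagln shares 62.4% of its exonic length with the opposite-strand noncoding gene Gm48529, whose level was not analysed here, and 5.4% with Pcsk7. The gene length recovered from the Tagln RPKM values was 1586 bases, against 1988 exonic bases in GENCODE M21. How far these overlaps hold for the gene model used in counting is therefore not known.

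**Figure D3:**
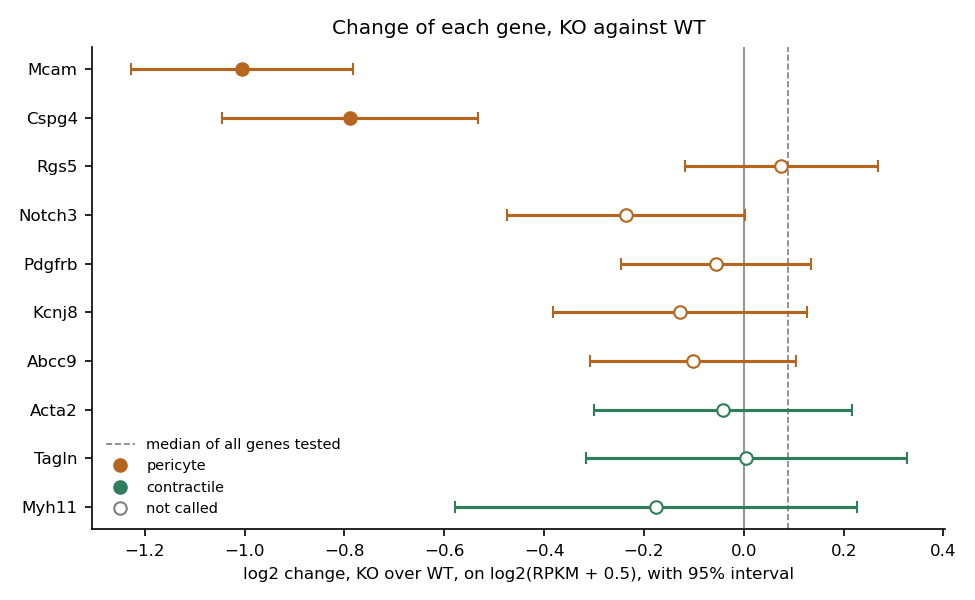
Log2 change of each gene, KO over WT (x axis, on log2(RPKM + 0.5)), with its 95% interval from limma, filled where called. The intervals of Mcam and Cspg4 lie wholly below 0, and those of the other 8 include 0, shown with the median of all genes tested at 0.09.

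The difference between pericyte and contractile genes was taken in each library as the mean log2 level of the 7 pericyte genes minus that of the 3 contractile genes, as a description with no test. It was -1.51, -1.14, -1.38, -1.46 and -1.64 in the KO-labelled libraries 1, 4, 7, 8 and 17, against -1.38, -1.35, -0.82, -1.34 and -0.99 in the WT libraries 2, 9, 19, 86 and 89. The groups overlapped, and their means were -1.43 and -1.18 in KO-labelled and WT libraries, 0.25 lower on the log2 scale in the KO-labelled ones. Without Mcam and Cspg4 the means were -1.30 and -1.28 in KO-labelled and WT libraries. The mean log2 level of Mcam and Cspg4, set against the other 5 pericyte genes, was between -0.61 and -0.34 in the KO-labelled libraries and between 0.25 and 0.56 in the WT libraries. That the groups do not overlap here follows from the choice of this pair. By mean RPKM, Mcam was the fifth of the 10 genes in KO-labelled libraries, below Rgs5 and Pdgfrb, and the third in WT libraries, above both. Cspg4 was the lowest of the 10 in KO-labelled libraries and above Kcnj8 and Abcc9 in WT libraries, by less than its own SD there.

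Single libraries recurred as the lowest or highest of their group. WT 2 was the lowest WT library for 6 of the 7 pericyte genes and for none of the contractile genes, and WT 9 was the highest WT library for 4 pericyte and 2 contractile genes. WT 19 was the lowest WT library for all 3 contractile genes. In the KO-labelled group, KO 7 was lowest for 4 pericyte genes and KO 8 highest for 4. After centring each gene on its mean over the 10 libraries, the closest pair of members was Pdgfrb and Abcc9, with a root mean square difference of 0.070 on the log2 scale. Mcam and Cspg4 differed by 0.149, Acta2 and Tagln by 0.142, and Rgs5 and Acta2, a pericyte and a contractile gene, by 0.138.

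**Figure D4:**
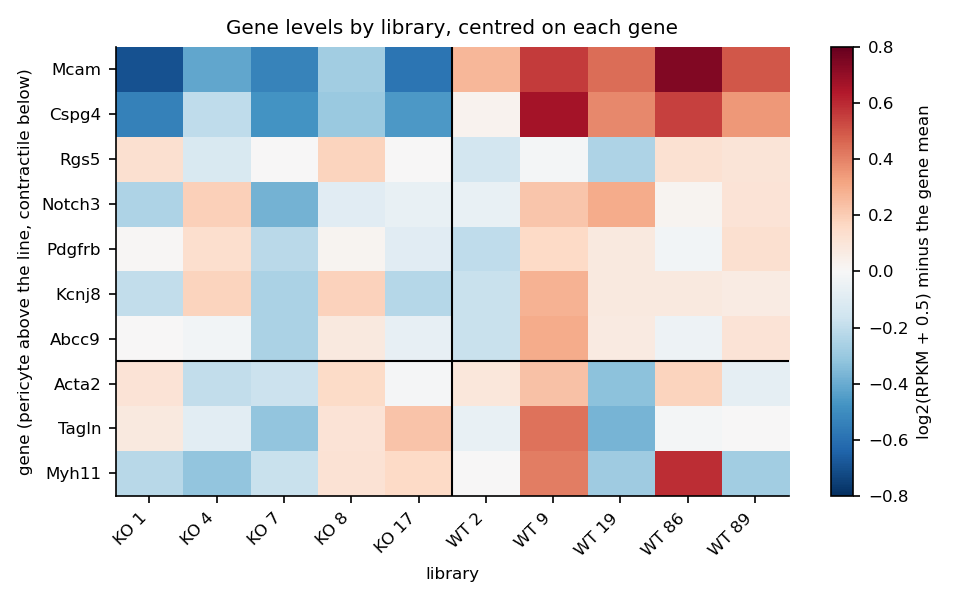
Log2(RPKM + 0.5) of each gene (rows) in each library (columns) minus the mean of that gene over the 10 libraries, on a colour scale from -0.8 to 0.8. The upper 2 rows, Mcam and Cspg4, split at the group boundary, and the other rows vary within each group, as in the low contractile row values of WT 19.

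Among 11092 other tested genes with a mean of at least 2 RPKM, the 3 whose centred levels were closest to those of Mcam were Ces1f, Tmem120a and Ppp2r5a, with root mean square differences of 0.129 to 0.159 on the log2 scale. Ces1f, a carboxylesterase gene, was at 7.90 ± 1.47 RPKM in KO-labelled and 16.9 ± 3.7 RPKM in WT libraries. The 3 closest to Cspg4 were Oscp1, Chrna1os and Sh3glb2 (0.089 to 0.111). All 6 were lower in the KO-labelled libraries, as closeness to Mcam or Cspg4 requires. The 3 closest to Rgs5 were Mrpl49, Ndufa3 and Fbxo8 (0.071 to 0.076) and the 3 closest to Acta2 were Uqcrh, Myct1 and Fam92a (0.096 to 0.10). These values describe the 10 libraries and say nothing of shared function.

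Of 16 further pericyte genes, 2 were called higher and 0 lower, with a median log2 change of 0.07 against 0.09 over all genes tested, of which 5.95% were called in either direction. Steap4, a metalloreductase gene found in pericytes and also in adipocytes, was at 189 ± 25 RPKM in KO-labelled and 135 ± 9 RPKM in WT libraries (log2 change 0.48, adjusted p = 0.0224). Gucy1a1, a subunit of the nitric oxide receptor guanylate cyclase, was at 25.5 ± 1.3 RPKM in KO-labelled and 20.7 ± 1.0 RPKM in WT libraries (0.29, adjusted p = 0.0171). Median-ratio scaling ended both calls (log2 changes of 0.39 and 0.20), quantile normalization ended that of Gucy1a1 (0.20), and that of Steap4 ended without KO 1, KO 17 or WT 86 (0.41 to 0.47). Without KO 1 and KO 4 together neither was called (0.43 and 0.30).

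Of 18 further contractile genes tested, 1 was called lower and 1 higher. Their median log2 change was 0.04, against 0.09 over all genes tested, of which 5.95% were called in either direction. Mustn1, a small muscle protein gene, had a log2 change of 0.29 (adjusted p = 0.0416), and of the runs that left out 1 library its call held only without KO 4. In a list of serum response factor, its cofactors and other muscle transcription factors, 1 of 6 tested was called, higher. This was Mef2a, a DNA-binding factor in its own right and not a cofactor of serum response factor, at 42.8 ± 5.3 RPKM in KO-labelled and 33.4 ± 2.1 RPKM in WT libraries (log2 change 0.35, adjusted p = 0.0481). Srf (log2 change 0.09) and its cofactor genes Mkl1 (0.06) and Mkl2 (0.11) were not called, and Myocd was below the filter. Mef2a kept its call only without KO 4 among the runs that left out 1 library. Both scalings ended the calls of Mustn1 and Mef2a, as did leaving out KO 1 and KO 4 together.

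In the Notch list 1 of 12 was called, lower, against 1.95% lower and 5.95% in either direction of all genes tested. The median log2 change of this list was -0.14, against 0.09 over all genes tested. Notch1, a receptor of endothelial and many other cells, was at 10.4 ± 0.8 RPKM in KO-labelled and 14.2 ± 0.8 RPKM in WT libraries (log2 change -0.43, adjusted p = 0.00467), with no overlap between the groups. Its call held in all 21 alternatives. None of the 5 PDGF genes was called. Pdgfra, the most abundant, was at 85.4 ± 11.6 RPKM in KO-labelled and 69.8 ± 4.5 RPKM in WT libraries (adjusted p = 0.0996), and Pdgfb, the ligand of Pdgfrb, at 18.1 ± 3.4 and 18.3 ± 2.2 RPKM in KO-labelled and WT libraries. None of the 10 tested genes of vascular tone was called. Among them Ednrb, an endothelin receptor, was at 39.0 ± 4.5 RPKM in KO-labelled and 27.8 ± 4.9 RPKM in WT libraries (adjusted p = 0.0526), and Rgs2, a relative of Rgs5, at 11.9 ± 0.5 and 14.8 ± 2.1 RPKM (adjusted p = 0.0862). None of 8 genes of mural recruitment and vessel basement membrane was called, with Col4a1 at 170 ± 21 RPKM in KO-labelled and 185 ± 19 RPKM in WT libraries, and Col4a2 at 112 ± 9 and 121 ± 11 RPKM.

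Beside the lower Mcam, which endothelial cells also carry, the 10 endothelial markers had a median log2 change of -0.19 and summed to 128 to 183 RPKM in KO-labelled and 155 to 187 RPKM in WT libraries. The 1 called, Kdr, a receptor for vascular endothelial growth factor, was at 13.0 ± 3.0 RPKM in KO-labelled and 18.9 ± 1.8 RPKM in WT libraries (log2 change -0.55, adjusted p = 0.0375), a call that ended with no filter and, of the runs that left out 1 library, held only without KO 8. Pecam1, another of these markers, was at 25.1 ± 2.9 RPKM in KO-labelled and 25.1 ± 2.1 RPKM in WT libraries (log2 change -0.0051). Of the 10 endothelial markers, 9 had a log2 change below 0 and 1 above. The median of all genes tested was 0.09. Among adipocyte markers the largest changes were those of Retn (-2.37), Cfd (-2.15), Cidec (-2.08) and Lipe (-1.52). Of the fibroblast and progenitor markers, Dpt (0.98) kept its call in all 21 alternatives. Those of Lum (0.47) and Cd55 (0.42) ended under both scalings. With 1 library left out, that of Lum held only without WT 9 or WT 89, and that of Cd55 ended without KO 1 or WT 86. Without KO 1 and KO 4 together the calls of Kdr, Lum and Cd55 ended (-0.42, 0.41 and 0.44). The part of any of these cell types in the levels of Mcam and Cspg4 was not tested.

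**Figure D5:**
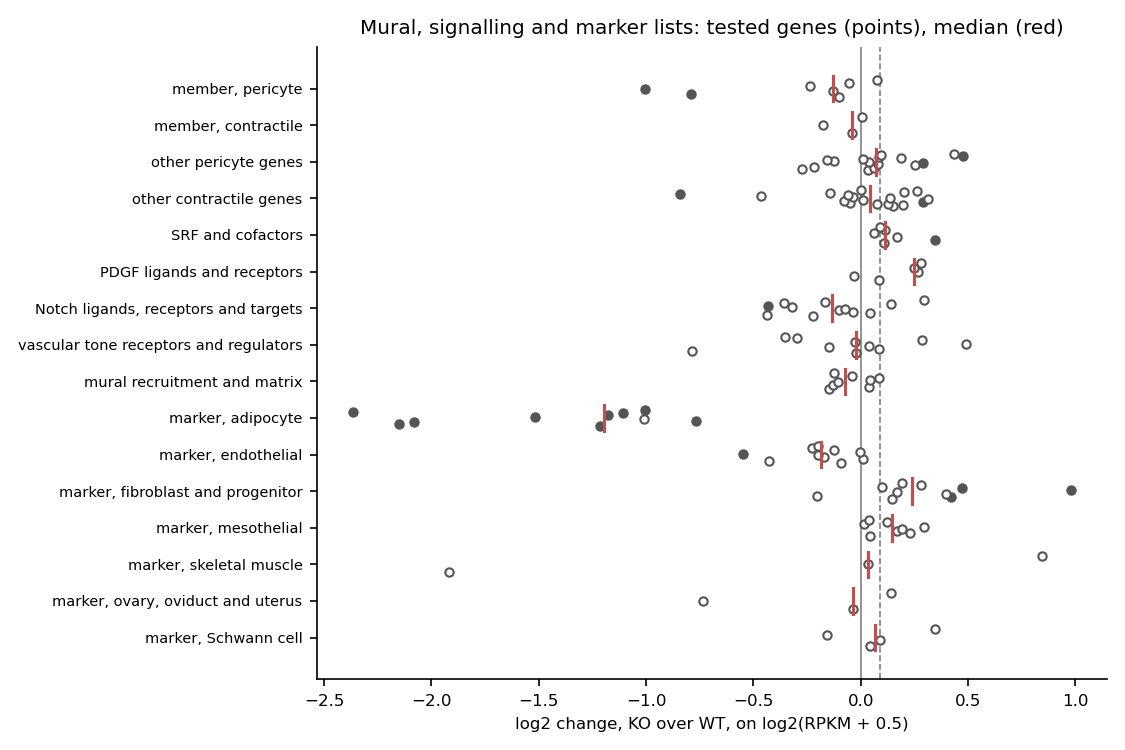
Log2 change, KO over WT (x axis), of each tested gene (points, filled where called) in the mural, signalling and marker lists (rows), with each list's median in red, 0 as a solid line and the median of all genes tested, 0.09, dashed. The adipocyte markers lie lowest, with a median of -1.20. The medians of the member lists are -0.13 (pericyte) and -0.04 (contractile), and those of the further pericyte and contractile genes 0.07 and 0.04.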

How the data were processed

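RNA from gWAT of 5 KO-labelled and 5 WT mice was sequenced, and the deposited tables hold RPKM per gene and per transcript. The unit comes from the file names. Per the submitters' processing notes, bcl2fastq, STAR 2.0.4b1, Subread and featureCounts 1.4.52 were used. No source used here names the genome build, the annotation release, the strand setting or how reads were divided among transcripts. Identifiers listed more than once carried identical values and entered once. Whole reads were recovered for 25121 of 25122 genes above 0 in at least 3 libraries, within 0.01 reads, and served for depth and for 1 alternative. Of these genes, 16346 gave whole reads at their GENCODE M21 exonic length. For the others, the smallest length that gave whole reads in every library was searched for and used. Such a search nearly always succeeds at low counts, and reads recovered this way can be fewer than those counted.

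Genes and transcripts with at least 0.5 RPKM in at least 5 libraries were tested, with log2(RPKM + 0.5) fitted in limma 3.58.1 (R 4.3.3; eBayes with trend and robust), 2-sided, and adjusted over all features by Benjamini-Hochberg. A fold change on this scale understates that of low genes. Med19 was compared by an exact permutation test over 252 assignments. The members and lists were chosen with earlier results of these data known. The text names all members, up to 4 called genes per list by size of change, and, where a mural or signalling list has none, its 2 most abundant genes. The gene called lower in the list of further contractile genes is not reported here. Pecam1, Gm10687, Ckm, Acta1, Srf, Mkl1 and Mkl2 were named after their values were seen. Alternatives were voom on recovered reads, array weights, other pseudocounts (0.1 and 1), quantile normalization, median-ratio scaling, plain eBayes, a stricter filter (1 RPKM) or none, each library left out and, added after seeing the data, protein-coding genes rescaled to a common total and KO 1 and KO 4 left out together. The precision of each value is set by 292 to 3070 reads per member and library and by 5 animals a group.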

Additional observations from a re-analysis of the deposited data

Results flagged for a closer look

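Of 50 sets of 5 values examined (each member, Med19 and each tested transcript in each group), 4 held a library far from the other 4 of its group, and chance alone would mark about 1 in 20. All 4 are transcript values. For Mcam ENSMUST00000034650, KO 8 was at 13.4 RPKM with the other KO-labelled libraries at 6.80 to 8.06 RPKM, and WT 2 was at 13.3 RPKM with the other WT libraries at 19.0 to 20.4 RPKM. For Mcam ENSMUST00000147836, WT 19 was at 4.496 RPKM with the other WT libraries at 0 to 0.905 RPKM. For Pdgfrb ENSMUST00000025522, WT 2 was at 10.7 RPKM with the other WT libraries at 14.7 to 15.5 RPKM.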

How the results depend on the processing

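Mcam and Cspg4 were called lower in each of 21 alternatives, at log2 changes of -1.10 to -0.95 (adjusted p 1.29e-05 to 0.00598) and -0.88 to -0.72 (adjusted p 5.14e-04 to 0.0301), and the other 8 genes were called in none. No paired analysis was possible because KO and WT animals carry different numbers. The count of genes called higher, 681, was 102 under median-ratio scaling, 149 under quantile normalization, 292 with no filter, 84 without KO 1 and KO 4, and 188 to 689 with 1 library left out. The 332 lower became 146 without KO 1 and KO 4 and 206 to 314 with 1 library left out. Transcripts numbered 41 higher and 201 lower, and 14 to 44 and 120 to 175 with 1 left out. The cause was not tested.

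Differences near 0 changed sign. With median-ratio scaling, quantile normalization and rescaled protein-coding genes, Tagln was at -0.0856, -0.0750 and -0.0135, and Rgs5 at -0.0155 and -0.0216 under the first 2. Pdgfrb ENSMUST00000025522 was at -0.0373 with median-ratio scaling. With 1 library left out, values ran from -0.13 to 0.0118 for Acta2, -0.0866 to 0.11 for Tagln, -0.10 to 0.51 for Mcam ENSMUST00000147836, -0.0379 to 0.0336 for Rgs5 ENSMUST00000027997, -0.0928 to 0.0860 for Pdgfrb ENSMUST00000025522, -0.57 to 0.13 for Pdgfrb ENSMUST00000115274 and -0.11 to 0.0741 for Tagln ENSMUST00000034590, and the Med19 difference from -0.21 to 0.40 RPKM. The pericyte minus contractile difference of -0.25 ran from -0.32 to -0.16. With 5 animals a group, the intervals of the 8 genes not called bound their ratios only to within 0.670 and 1.25.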
